A study of Mus musculus with 3 samples.

Results

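BNC1 peaks with 8 to 10 tags that lay at least 100 kb from any H3K4me3 peak were examined in the mouse ovary. Peaks are regions that a peak-calling program listed as enriched, and tags are the sequenced fragments counted inside them. Members were all BNC1 peaks on chromosomes 1 to 19 and X with 8, 9 or 10 tags and at least 100 kb, measured from edge to edge, to the nearest H3K4me3 peak on the same chromosome. This gave 1322 members, or 51.3% of the 2578 peaks in the BNC1 list. For comparison, 59% of all 2558 BNC1 peaks on these chromosomes, whatever their tag count, were at that distance. Among the others, 855 peaks with 8 to 10 tags lay nearer to H3K4me3. A further 187 peaks with more than 10 tags were far from it and 194 were near it. Because members were chosen by tag count and distance, these measures are given only as descriptions.

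The series holds 3 chromatin immunoprecipitation sequencing (ChIP-seq) libraries from mouse ovaries, taken from wild-type C57BL/6 J animals at an age of 8 weeks. There was 1 BNC1 library, 1 H3K4me3 library and 1 input library, for which no peak list was analysed here. Whole ovaries were used, so that oocytes, granulosa cells and stroma cannot be told apart in any peak, and the number of animals behind a library is not given in the sources used here. The supplier of the BNC1 antibody in the sample label differs from that in the study's methods, so the antibody behind these peaks is uncertain. In its title that sample is also called treated, although no treatment is described.

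Basonuclin 1 (BNC1) is a zinc finger transcription factor of basal keratinocytes and of germ cells in testis and ovary. H3K4me3, trimethylation of lysine 4 of histone H3, is found mainly at the promoters of active genes. A stretch without H3K4me3 peaks is here only a stretch where this list held none, and active promoters may be missing from the list. The list held 2 peaks on chromosome X, 89 on chromosome 18 and 1060 on chromosome 11, and how complete it is was not tested. Coordinates are those of the lists, for which the submitters' processing notes name the mm9 build. Genes and sequences at these positions were not analysed here. With 1 library per antibody, no difference between peaks has a replicate check and no p-value was computed across peaks. The intervals given cover counting error only, and they treat peaks as independent although some lay close together. Tags without molecular identifiers are not independent molecules.

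Most members sat at the lowest tag count of the list. Of the 1322 members, 858 held 8 tags, 337 held 9 and 127 held 10. Those with 8 tags made up 64.9% of members (95% Wilson interval 62.3 to 67.4%) and 54.9% of the nearer low-tag peaks (51.5 to 58.2%). The share of peaks that were far was lower with 9 or 10 tags than with 8. It was 64.7% of peaks with 8 tags (62.0 to 67.2%), 57.5% with 9 (53.5 to 61.4%), 48.1% with 10 (42.1 to 54.1%) and 49.1% of peaks with more than 10 tags (44.1 to 54.1%). Chromosomes 9 and 15 carried 187 of the 381 peaks with more than 10 tags, and without them the far share of such peaks was 38.7% (32.1 to 45.7%). The share for low-tag peaks then was 60.1% (58.0 to 62.3%).

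To compare this with even placement, the share of positions on each chromosome at which a peak of 151 bp would be at least 100 kb from H3K4me3 was calculated. On each chromosome, positions between the outermost peaks of either list were counted. Weighted by the low-tag peaks on each chromosome, 66.3% of positions were far, whereas 60.7% of low-tag BNC1 peaks were (58.7 to 62.8%). The ratio was 0.916 (0.884 to 0.946), which is 1322 members where even placement would give 1444. Low-tag BNC1 peaks were thus slightly less often far from H3K4me3 than sequence length alone would give. Among peaks with exactly 8 tags the ratio was 0.963 (0.924 to 1.0), and the interval reached 1. Assembly gaps and sequence to which tags cannot be mapped were counted as available positions.

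The observed share was below the share of positions on 16 of 20 chromosomes. On 9 of these the share of positions lay outside the Wilson interval. The gap was widest on chromosome 4, where 41 of 77 low-tag peaks were far, 53.2% (42.2 to 64.0%) against 74.8% of positions. Chromosome 10 had 132 of 213, or 62.0% (55.3 to 68.2%) against 73.6%, and chromosome 11 had 66 of 156, or 42.3% (34.8 to 50.2%) against 52.6%. The opposite was seen on chromosome 19, which is short and dense in H3K4me3. There, 54 of 87 low-tag peaks were far, 62.1% (51.6 to 71.5%), although only 48.8% of positions were. Chromosomes 9 and 15 also lay above their share of positions, but within the interval. On chromosome X, where only 2 H3K4me3 peaks were listed, 99.7% of positions were far and so were all 4 low-tag peaks.

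**Figure D1:**
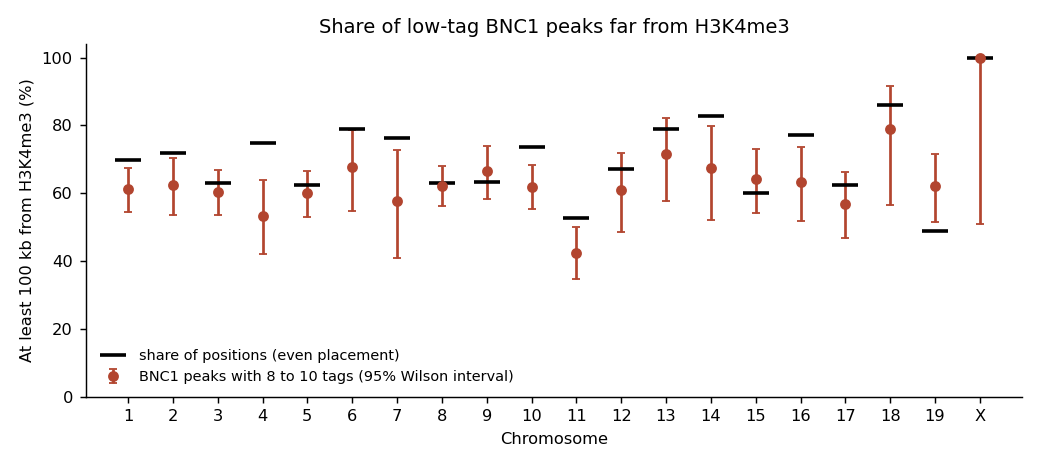
Share of BNC1 peaks with 8 to 10 tags that lay at least 100 kb from H3K4me3, per chromosome, in percent. Points are observed shares with 95% Wilson intervals and black bars are the share of positions, which lies above the point on 16 of 20 chromosomes and below it by most on chromosome 19.

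Members were unevenly spread over the chromosomes also in relation to the far sequence on each. Chromosome 8 had 158 members, chromosome 10 had 132, chromosome 1 had 128 and chromosome 3 had 124, together 41.0% of all. Nearer low-tag peaks were numerous there too. Of 855, chromosome 8 had 96 and chromosomes 10, 1 and 3 had 81 each. Over 1780 Mb of far positions in all, there were 0.743 members per Mb. Chromosomes 8 and 19 had 1.95 and 1.91 members per Mb. Chromosome 14, the sparsest with at least 20 members, had 0.281 and chromosome X had 0.0360. Nearer low-tag peaks per Mb of nearer positions were 2.04 on chromosome 8, 1.11 on chromosome 19 and 0.647 on chromosome 14. None were on chromosome X. Chromosome 10 was the densest in nearer low-tag peaks, with 2.42 per Mb, against 1.17 per Mb over all chromosomes.

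The number of low-tag peaks was next followed with distance. Each distance range was compared with the number that even placement of the low-tag peaks on their own chromosome would give, with exact Poisson intervals. Within 10 kb of H3K4me3, 202 peaks were listed, 1.36 times even placement (1.18 to 1.57). The 218 peaks from 10 to 30 kb gave 1.08 (0.940 to 1.23) and the 435 from 30 to 100 kb gave 1.14 (1.03 to 1.25). From 100 to 200 kb the ratio was 1.07 (0.952 to 1.20) and from 200 to 500 kb it was 1.02 (0.923 to 1.12), with 295 and 437 members. Beyond that it was lower. The 269 members from 500 kb to 1 Mb gave 0.814 (0.719 to 0.917) and the 200 members from 1 to 2 Mb gave 0.776 (0.673 to 0.892). The 111 members from 2 to 5 Mb gave 0.834 (0.686 to 1.0), and only 10 lay farther away (0.586, 0.281 to 1.08). The shortfall against even placement was therefore not at the 100 kb limit but beyond 500 kb. Assembly gaps and sequence to which tags cannot be mapped counted as available here too, and their share in each range was not calculated.

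Distances of the members had a median of 435 kb (interquartile range 216 to 978 kb). The 3 members just inside the limit were on chromosome 10 from 27806320 to 27806473, on chromosome 9 from 31941808 to 31941937 and on chromosome 13 from 47367981 to 47368137. They lay 100737, 101166 and 101246 bp from H3K4me3. The 3 low-tag peaks just outside it lay 99852, 99692 and 99546 bp away, on chromosome 10 from 83106429 to 83106570, on chromosome 8 from 119922246 to 119922374 and on chromosome 10 from 13587275 to 13587422. All 6 of these peaks held 8 tags.

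The 4 members farthest from H3K4me3 were the 4 on chromosome X. The farthest ran from 98188632 to 98188784, 26.6 Mb from the nearest H3K4me3 peak, with 8 tags and a fold enrichment of 6.69. Others ran from 93295799 to 93295933, from 55137323 to 55137479 and from 87043694 to 87043831, at 21.7, 16.5 and 15.4 Mb, each with 8 tags at 8.37-fold. Next came a member on chromosome 16 from 68076844 to 68077002, 8.30 Mb from H3K4me3, with 9 tags, also at 8.37-fold. It lay in a 16.8 Mb stretch without H3K4me3, 290 kb from another member.

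The H3K4me3 peaks next to members had somewhat fewer tags and were narrower than the list as a whole, but their fold enrichment was not lower. The 748 different peaks nearest to a member had a median of 39.5 tags (interquartile range 30 to 57) and a width of 352 bp. Over all 9919 H3K4me3 peaks on these chromosomes the medians were 45 tags (33 to 67) and 388 bp. The 770 peaks nearest to the other low-tag BNC1 peaks lay between, with 42 tags and 368 bp. The median fold enrichment was 7.69 for the peaks nearest to members, 7.69 for those nearest to other low-tag peaks and 7.28 over all.

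The deposited fold enrichment compares a peak with an expected background. Callers of this kind divide the height of a peak by a background that is taken locally and is not allowed to fall below a genome-wide level. Whether this held for these lists is not given in the sources used here. The fold enrichments of members fell on a ladder of equal steps. The step was 1.67, and 1013 of the 1322 members, or 76.6% (74.3 to 78.8%), had a fold enrichment within 0.006 of a whole multiple of it. The step was fitted to the members themselves, so this share is a description. The most common value was 8.37, the fifth multiple, with 473 members. It was followed by 10.04 with 304 members, 6.69 with 152 and 11.71 with 79.

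Low-tag peaks nearer to H3K4me3 were less often on this ladder, with 414 of 855 or 48.4% (45.1 to 51.8%). Peaks with more than 10 tags were rarely on it, at 16.6% (11.9 to 22.6%) far from H3K4me3 and 12.4% (8.46 to 17.7%) near it. Because the tag count differed between the groups, peaks with the same number of tags were compared. With 8 tags, 86.6% of members (84.2 to 88.7%) and 65.5% of nearer peaks (61.0 to 69.6%) were on a step. With 9 tags the shares were 61.4% (56.1 to 66.5%) and 31.7% (26.3 to 37.7%), and with 10 tags they were 49.6% (41.1 to 58.2%) and 20.4% (14.5 to 28.0%). The difference was thus present at each tag count. The medians did not show it, since the median fold enrichment was 8.37 in both groups.

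**Figure D2:**
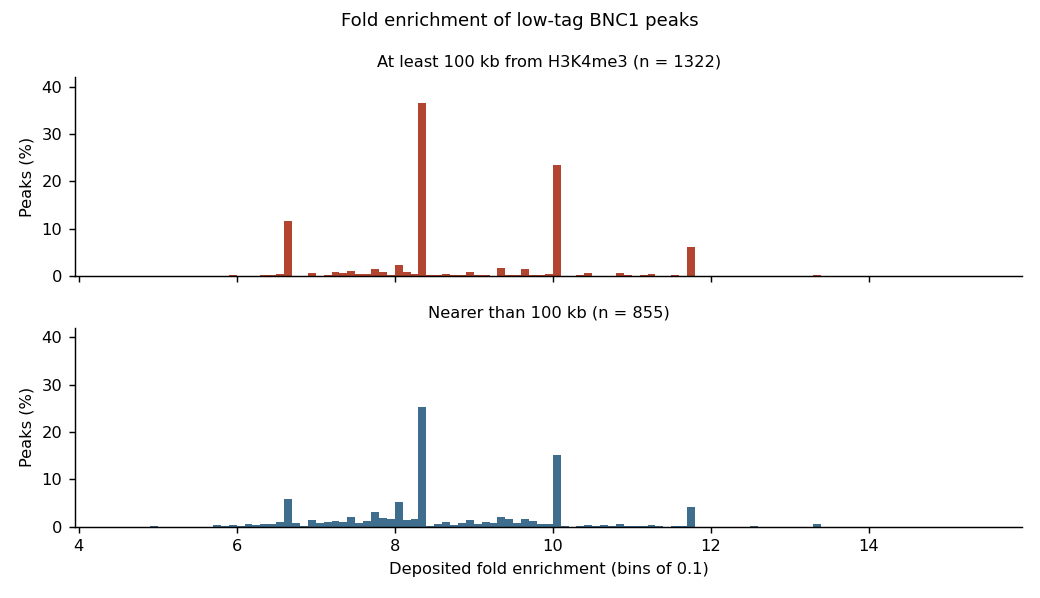
Deposited fold enrichment of BNC1 peaks with 8 to 10 tags, as the percent of peaks in bins of 0.1, for the 1322 members (top) and the 855 peaks nearer to H3K4me3 (bottom). Tall bars stand at 6.69, 8.37, 10.04 and 11.71 in both, with more peaks between them in the bottom panel.

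The share on a step was larger in each farther range. It was 39.1% (32.6 to 46.0%) within 10 kb of H3K4me3, 49.1% from 10 to 30 kb and 52.4% from 30 to 100 kb. Among members it was 64.7% (59.1 to 70.0%) from 100 to 200 kb, 72.3% from 200 to 500 kb, 82.2% from 500 kb to 1 Mb, 86.5% from 1 to 2 Mb and 91.9% (85.3 to 95.7%) from 2 to 5 Mb. All 10 members beyond 5 Mb were on a step. The median width stayed between 148.5 and 152 bp over the same ranges.

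**Figure D3:**
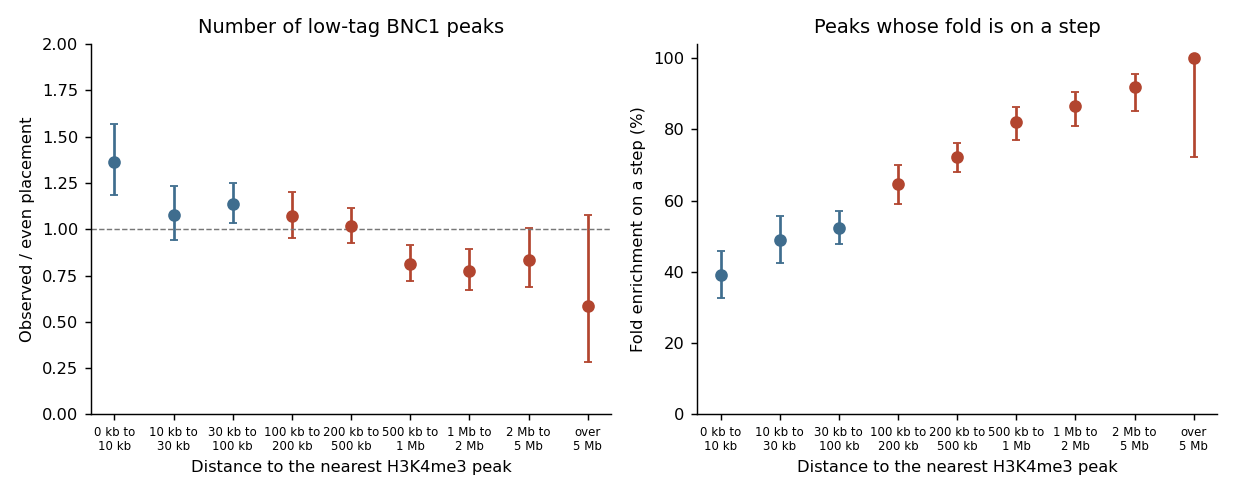
Low-tag BNC1 peaks by distance to the nearest H3K4me3 peak, with members in red and nearer peaks in blue. The left panel shows the number of peaks over that of even placement (95% exact Poisson intervals), from 1.36 within 10 kb to 0.776 from 1 to 2 Mb and 0.586 for the 10 members beyond 5 Mb, and the right panel shows the percent of peaks on a step of fold enrichment (95% Wilson intervals), from 39.1% to 100%.

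Chromosomes differed in this share as well. Of members, 42.6% (31.0 to 55.1%) were on a step on chromosome 15, 46.3% (33.7 to 59.4%) on chromosome 19 and 45 of 90 (39.9 to 60.1%) on chromosome 9. These were also the 3 chromosomes on which low-tag peaks were far more often than positions were, apart from chromosome X. On chromosome 10 the share was 90.2% (83.9 to 94.2%), and all 27 members on chromosome 14 were on a step. Nearer low-tag peaks also differed by chromosome. Their shares were 44.1% on chromosome 15, 24.2% on chromosome 19 and 51.1% on chromosome 9. On chromosomes 10 and 14 they were 77.8% and 76.9%. Within chromosomes, members were on a step more often than nearer peaks on 15 of 19 chromosomes, and less often on chromosomes 9, 13, 15 and 18. Without chromosomes 9, 15 and 19 the shares were 82.1% for members and 49.5% for nearer peaks.

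The 5 members with the highest fold enrichment were all on the ladder. The highest, on chromosome 8 from 46214362 to 46214495, held 10 tags at 15.06-fold and lay 204 kb from H3K4me3. The other 4 had a fold enrichment of 13.39. They were on chromosome 1 from 142890163 to 142890323 (10 tags), on chromosome 3 from 26625505 to 26625642 (9 tags), on chromosome 9 from 36075385 to 36075523 (10 tags) and on chromosome 10 from 89675183 to 89675328 (9 tags). Of these, the chromosome 1 peak was the most remote, 1.54 Mb from H3K4me3 and 1.64 Mb from any other BNC1 peak.

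Members were narrow and of much the same width. The median was 151 bp (95% interval of the median 150 to 151 bp, interquartile range 142 to 156 bp), and 150 bp (149 to 151 bp) for nearer low-tag peaks. Far peaks with more than 10 tags had a median of 202 bp (192 to 211 bp). Width went with the tag count, by which members were chosen, so it too is given only as a description. Members with 8 tags had a median of 148 bp (147 to 149 bp), those with 9 tags 156 bp (155 to 158 bp) and those with 10 tags 171 bp (168 to 174 bp).

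The widths of members with 8 tags stopped at 157 bp, and those of nearer peaks with 8 tags stopped at the same value. At 157 bp, members with 8 tags on the ladder had a 10 × −log10 p of 40.14, next to the lowest value listed, 40.01. Whether the cutoff of the list set this limit was not tested. With 9 and 10 tags, members reached 194 and 212 bp. The 3 widest members held 10 tags each. They measured 212 bp on chromosome 8 from 10143234 to 10143445, 210 bp on chromosome 5 from 50900617 to 50900826 and 206 bp on chromosome 17 from 22096044 to 22096249. The 3 narrowest held 8 tags, had fold enrichments off the ladder and measured 97 bp on chromosome 15 from 60526965 to 60527061, 101 bp on chromosome 1 from 69841501 to 69841601 and 101 bp on chromosome 9 from 36313698 to 36313798.

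At 8 tags, members were slightly wider than nearer peaks, whose median was 144 bp (143 to 146 bp). When peaks on and off the ladder were taken apart, the difference was not detectable. On the ladder, members had a median of 149 bp (148 to 150 bp) and nearer peaks 148 bp (146 to 149 bp). Off it, the medians were 135 bp (133 to 137 bp) and 138.5 bp (134 to 141 bp).

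For members with 8 tags on the ladder, the p-value could be read from the width. P-values are deposited as 10 × −log10 of the p-value, so that larger is stronger. Members had a median of 42.95 (interquartile range 41.18 to 46.15), where the list began at 40.01. Only 106 members, or 8.02% (6.67 to 9.61%), reached 50.01, at which the H3K4me3 list began. For the 743 members with 8 tags and a fold enrichment on a step, the p-value was the same for all peaks of one width. They had 47 different widths, and within each the deposited values differed by at most 0.01. The value fell from 53.28 at 105 bp to 40.14 at 157 bp. All 300 nearer peaks of the same kind that shared a width with a member had the p-value of that width to within 0.02. For peaks of this kind, the width thus gave the deposited p-value to within 0.02. Both values come from the peak-calling program and depend on the tag count, so this is only a description of its output.

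**Figure D4:**
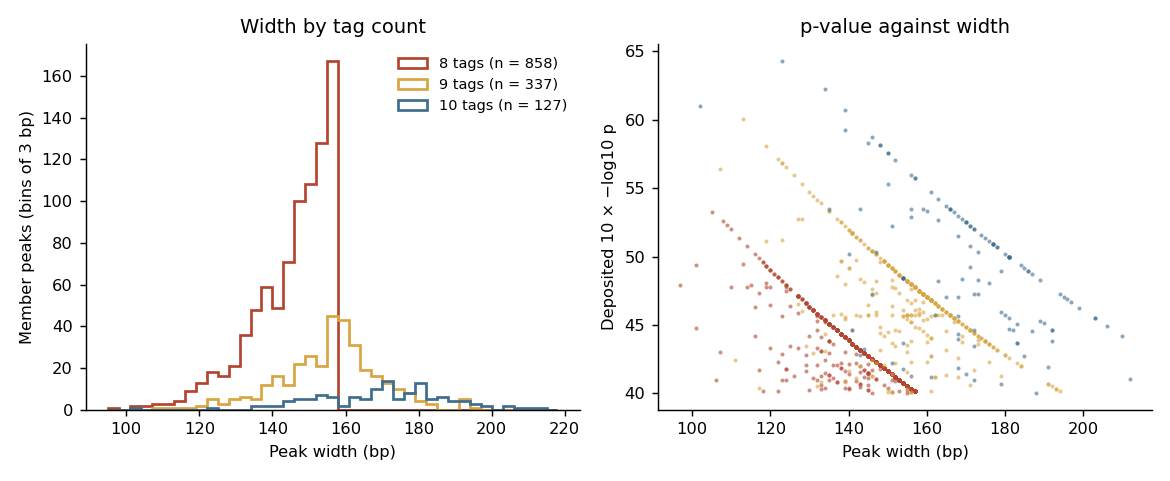
Width in bp (left, number of members in bins of 3 bp) and deposited 10 × −log10 p against width (right, 1 point per member), for members with 8, 9 and 10 tags. Widths at 8 tags pile up and stop at 157 bp, and members of each tag count follow a line along which the value falls with width, from 53.28 to 40.14 at 8 tags, with other members below it.

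The summit, the highest point of a peak, stood 40 to 60 bp from the nearer edge in most members. The median width of members was 151 bp, and no summit was less than 31 bp from an edge. The median distance of the summit to the nearer edge was 50 bp (interquartile range 46 to 57 bp). In 981 members, or 74.2% (71.8 to 76.5%), it was 40 to 60 bp. Nearer low-tag peaks had the same pattern, with 73.8% (70.8 to 76.6%).

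Few members had another BNC1 peak within 10 kb, but in 332, or 25.1% (22.9 to 27.5%), there was such a peak within 100 kb. At 100 kb the share was 32.0% (29.0 to 35.2%) for nearer low-tag peaks. It was 59.9% (52.7 to 66.7%) for far peaks with more than 10 tags. Of these 187 peaks, 76 were on chromosome 9 and 36 on chromosome 15, and their spacing elsewhere was not calculated. The spacing under even placement was not calculated. The median distance from a member to the nearest other BNC1 peak of any tag count was 282 kb (95% interval of the median 253 to 309 kb), and to the nearest other member 387 kb (353 to 447 kb). Nearer low-tag peaks had a BNC1 neighbour at a median of 205 kb (175 to 224 kb), and far peaks with more than 10 tags at 50.8 kb (28.8 to 83.1 kb). In 33 members, or 2.50% (1.78 to 3.48%), another BNC1 peak was listed within 10 kb. The share was 3.86% (2.76 to 5.37%) for nearer low-tag peaks, with overlapping intervals, and 29.4% (23.3 to 36.3%) for far peaks with more than 10 tags. In 189 members, 14.3% (12.5 to 16.3%), there was none within 1 Mb. The nearest BNC1 peak was itself a member for 954 members (72.2%) and a nearer low-tag peak for 265. For comparison, members were 1322 of the 2558 BNC1 peaks on these chromosomes. The distance rule bears on this share, because a BNC1 peak close to a member also tends to be far from H3K4me3.

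Consecutive members on a chromosome were a median of 810772 bp apart. Of 1302 such pairs, 1 lay within 1 kb, 13 within 10 kb and 160 within 100 kb. The closest pair was on chromosome 8, from 54238336 to 54238501 (9 tags) and from 54239012 to 54239174 (10 tags), 510 bp apart and both at 10.04-fold. When members up to 100 kb apart were joined, 1030 stood alone and 292 formed 132 chains. Of the chains, 111 were pairs, and the longest held 7 members.

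Members had to lie at least 100 kb from H3K4me3, so the lengths of the H3K4me3-free stretches around them are given only as descriptions. Their median, counted once per member, was 2135263 bp (95% interval of the median 1999038 to 2334565 bp, interquartile range 999878 to 3851040 bp). Stretches with many members weigh more in it. In all, 2012 H3K4me3-free intervals were long enough to hold a member. Counted once each, these intervals had a median of 507 kb, which is not a like measure. A member was found in 603 of them, and 341 of these held exactly 1. Longer intervals more often had one, from 10.1% of the 998 intervals under 500 kb to 89.4% of the 47 intervals of 5 to 10 Mb and all 8 beyond 10 Mb.

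This increase followed the length of the intervals. Per Mb of far positions, members were not denser in long intervals. Intervals under 500 kb had 1.09 times the number of even placement (95% exact Poisson interval 0.898 to 1.31), those of 500 kb to 1 Mb had 1.03 (0.898 to 1.18) and those of 1 to 2 Mb had 0.980 (0.871 to 1.10). The 436 members in intervals of 2 to 5 Mb made 0.845 (0.768 to 0.928), and the 209 in intervals of 5 to 10 Mb made 0.833 (0.724 to 0.954). In the 8 longest intervals the ratio was 0.833 (0.616 to 1.10).

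**Figure D5:**
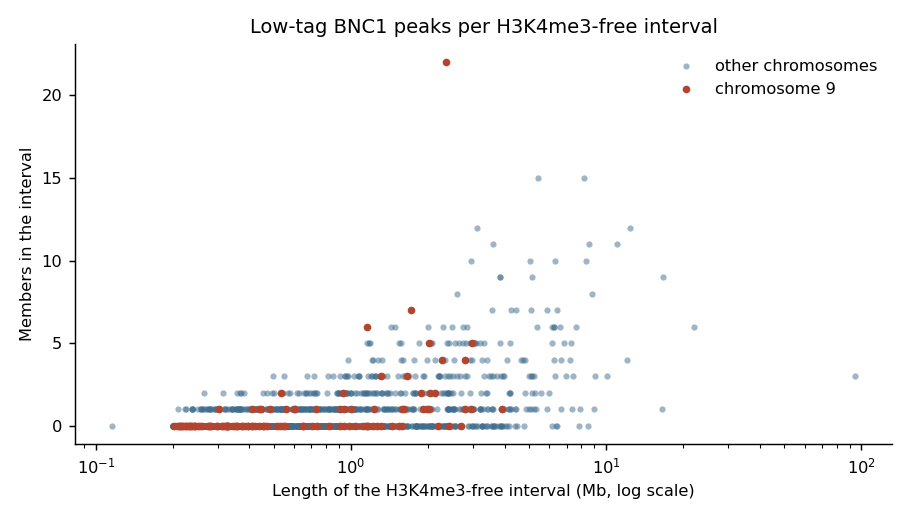
Number of members against the length in Mb (log scale) of each of the 2012 H3K4me3-free intervals that could hold one, with chromosome 9 in red. Most intervals held 0 or 1 member, and the one with 22, on chromosome 9, stands apart from intervals of like length.

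The interval with the most members lay on chromosome 9 from 37640436 to 39998938, 2.36 Mb in all, and held 22. This is 10.2 members per Mb of far positions, against 0.916 on the rest of the chromosome. Intervals of 15 members on chromosome 8 (49196161 to 54597264) and on chromosome 3 (41369530 to 49560927) were longer and had 2.88 and 1.88 per Mb. In the chromosome 9 interval the first member ran from 38117614 to 38117765 (9 tags, 7.2-fold) and the last from 39856717 to 39856871 (8 tags, 6.69-fold). Of the 22, 8 held 8 tags, 8 held 9 and 6 held 10. Their nearest BNC1 peak was a median of 30.6 kb away, with a range of 5298 bp to 121 kb.

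Members of this interval resembled others in width, with a median of 146 bp and a range of 116 to 183 bp. Only 5 of the 22, or 22.7%, had a fold enrichment on a step, against 58.8% of the other 68 members on chromosome 9. The interval also held 6 BNC1 peaks with 11 to 14 tags and fold enrichments of 7.33 to 9.81.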

How the data were processed

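Peak lists of 1 BNC1 and 1 H3K4me3 library from ovaries of 8-week-old mice were analysed. The submitters' processing notes name Bowtie2, MACS2 2.1.0 and the mm9 build, without settings, whereas the column names are those of older MACS tables. The control library was not given in the sources used here. The deposited tags are counts per peak without normalization. The deposited p-value is a score of 10 × −log10, the deposited fold enrichment is a ratio and false discovery rates were deposited in percent. Library depth is unknown.

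Calculations used numpy 2.4.6 and scipy 1.17.1, tables were read with pandas 2.3.3 under Python 3.11.15, and matplotlib 3.10.9 drew the figures. Even placement was calculated from interval lengths, without random draws. The step was the value from 1.5 to 1.9 that most members matched to within 0.006. Medians have binomial 95% intervals. Distances and calculated shares were tested on simulated data. Members, lists and comparisons were chosen with earlier results of these data known. Named peaks were set by rank of distance, fold enrichment, width, spacing and interval. The steps, the relation of p-value to width, summit positions, tables by distance and the neighbouring H3K4me3 peaks were added after values were seen. Gene positions of another build were not used, and coordinates were not converted.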

Additional observations from a re-analysis of the deposited data

Results flagged for a closer look

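Outside chromosomes 1 to 19 and X, 5 BNC1 peaks with 8 to 10 tags were listed, on sequences that the comparisons above do not use. They came to attention as peaks outside the chromosomes compared, and how many such peaks even placement would give there was not calculated. Of these, 2 were on the random contigs of chromosome 8, 204101 and 191342 bp from an H3K4me3 peak, and 1 was on those of chromosome 9, 11357 bp from one. The remaining 2 were on unplaced contigs without a listed H3K4me3 peak. Their widths were 123, 82, 172, 88 and 81 bp.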

How the results depend on the processing

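Of 50 values recomputed under alternative settings, 33 remained inside the main value's 95% interval or, for counts, within 1.5 times of it. The other 17 moved further. With far taken from 50 kb, the far share was 72.6% and the median free interval 1655278 bp. With 200 kb, these were 47.2% and 2529222 bp, and the ratio to even placement was 0.879. With exactly 8 tags, there were 858 members, a far share of 64.7%, a ratio of 0.963, a median width of 148 bp, a median distance to the nearest BNC1 peak of 314669 bp and a free interval of 2358503 bp. With the H3K4me3 peaks above their median p-value score only, the share was 71.7%, the ratio 0.954 and the free interval 2680483 bp. With the BNC1 peaks above their median score only, there were 592 members with a median width of 148 bp and a nearest BNC1 peak at 513932 bp. These settings change which peaks or intervals are counted, and other causes were not tested. The ratio was below 1 in every setting.

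Leaving out each of chromosomes 1 to 19 in turn gave 1164 to 1307 members, far shares of 60.3 to 62.1%, ratios of 0.905 to 0.924, a median width of 151 bp, nearest BNC1 peaks at 265118 to 305025 bp and free intervals of 2062610 to 2262138 bp. No replicate could be left out and no paired analysis was possible because each antibody had 1 library. No listed peak had fewer than 8 tags, and library depth could not be read from the lists.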

Other observations

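Some long stretches had neither mark nor member. Of the H3K4me3-free intervals longer than 2 Mb, 78 held no member, and 67 of these had no BNC1 peak of any tag count. The longest of the 78 lay on chromosome 14 from 37677106 to 46159689, a length of 8.48 Mb without a BNC1 peak. Intervals without a member made up 628 Mb, or 35.3% of the far positions.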
